A study of Mus musculus with 6 samples.

Results

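The 40 genes described here encode ribosome biogenesis factors, proteins that make, modify and assemble ribosomal RNA (rRNA). They were taken as a list of named genes, with no measured value in the rule but with earlier results of these data known, out of 55487 genes in the count table, and all 40 were found and passed the filter on low counts. The list holds 7 genes of RNA polymerase I and its factors, 3 of the box C/D small nucleolar ribonucleoproteins (snoRNPs), 5 of the box H/ACA snoRNPs and their chaperone, 4 abundant nucleolar proteins, 13 factors of the small ribosomal subunit and 8 of the large subunit. In every growing cell RNA polymerase I transcribes a long rRNA precursor, snoRNPs guide its methylation and pseudouridylation, and assembly factors fold and cut it into the subunits. Embryonic stem (ES) cells divide rapidly and are known for large, active nucleoli.

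PolyA RNA-seq was done on mouse ES cells of the D6AdP line, and all 3 groups share 1 genotype: both Ddx6 alleles carry the DDX6-AID-mCherry fusion, DCP1a-EGFP is present on a single allele (DCP1a-EGFP/+), and the cells hold the transgene OsTIR1-FLAG Tg. AID is an auxin-inducible degron and OsTIR1 the plant F-box protein that marks degron-tagged proteins for the proteasome when an auxin is present. DDX6 is an RNA helicase of processing bodies that acts in translational repression and mRNA decay, and DCP1a is a decapping cofactor there. The auxin analog 5-Ph-IAA was given at 500 nM for 0 h, 3 h or 6 h, with 2 libraries at each time and 6 in all. The medium held PD0325901, CHIR99021 and leukemia inhibiting factor, and the cells sat on mitomycin-C treated fibroblast feeders. No group without the degron or without OsTIR1 was analysed here, so DDX6 loss, the auxin analog and time in culture cannot be told apart. Whether the libraries of a time came from separate cultures is not stated, so p-values refer to the spread among these 6 libraries alone, and that spread may be technical.

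Library totals ran from 16357142 to 21846959 counts, and the 40 factors took 1.23 to 1.30% of them. Each factor had between 464 and 73826 counts in each library, so all were measured far above the limit of 3 counts. The targeted Ddx6 mRNA was at 267 and 249.9 CPM (counts scaled to library size) at 0 h, 269 and 271 CPM at 3 h and 258 and 247 CPM at 6 h. Its groups at 0 h and 6 h overlapped and it was not called at either time, and because the degron acts on the protein this mRNA does not check the labels. All 10 ES cell markers were detected in every library, with a summed level of 4253 to 4707 CPM. At 6 h against 0 h 4 of these 10 fell, Esrrb (-0.42), Zfp42 (-0.29), Sall4 (-0.24) and Dppa5a (-0.14, all log2 fold changes), and 3 rose, Sox2, Nanog and Tdgf1 (0.13 to 0.14), named after their values were seen. The 26 fibroblast markers were also all detected, at a summed 23868 and 21925 CPM at 0 h, 21280 and 20919.7 CPM at 3 h and 23813 and 21519 CPM at 6 h. Markers of primitive endoderm and trophectoderm summed to 96.3 to 119 CPM, with Elf5 at 0 in 5 libraries. Of the 9 tested at 6 h against 0 h, Sox7 fell (-1.12) and Eomes (0.35) and Tfap2c (0.26) rose, also named after their values were seen. The part of the ES cell, primitive endoderm and trophectoderm markers' changes in the factors' values was not tested. For the fibroblast markers a fit with their mean as a covariate is given below. Ribosome biogenesis factors are made in ES cells and fibroblasts alike, so each value is a sum over both. In such bulk RNA fewer cells of a type and less RNA per cell cannot be told apart.

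No factor passed the test at 3 h, and 17 of the 40 were lower at 6 h. At 3 h, 0 of the 40 were called higher or lower by edgeR's quasi-likelihood test with Benjamini-Hochberg adjustment over all 15748 genes tested, at an adjusted p under 0.05. Of all genes 0.14% were called in that comparison, 0.0508% higher and 0.0889% lower. At 6 h against 0 h, 17 of the 40 fell (42.5%) and 0 rose, where 22.3% of all genes were called, 12.3% lower and 10% higher. The falls were small, from 6.13% for Ncl to 21.4% for Tsr1, and none reached 1.5-fold. The median log2 fold change of the 40 was 0.00 at 3 h and -0.09 at 6 h, beside 0.00 at both times for all genes tested. At 6 h 37 of the 40 lay below 0 (29 when libraries were scaled by their sizes alone), beside 7809 of all 15748 genes tested. The 3 factors above 0, Dkc1, Polr1e and Nop16, were not called. Among the 6570 genes with average log2 CPM in the same range as the factors, 22.5% fell and 9.03% rose at 6 h. This set spans the whole range of the 40 (4.79 to 11.7) and is not matched to any role list. The median SE of its log2 fold changes at 6 h was 0.048, beside 0.039 for the 40, so its genes were measured less precisely. Of these 6570, 4046 lay below 0, with a median of -0.03 for the 6570.

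Against 3 h, 17 of the 40 were lower at 6 h and 0 were higher, where 21.7% of all genes were called, 11.8% lower and 9.89% higher. The factors' median log2 fold change was -0.09 there. This comparison shares the 6 h libraries with that against 0 h, as both comparisons with 0 h share the 0 h libraries. In both, 15 factors were called lower. Fbl and Ncl were called only against 0 h and Nop56 and Polr1c only against 3 h, and 21 factors were called in neither. The count against 3 h rested more on single libraries, with 10 called without replicate 1 of 3 h, 8 without its replicate 2 and 10 without replicate 1 of 6 h. In the same fits the share of all genes called lower went from 11.8% to 5.91%, 5.26% and 7.22%. With the mean of the fibroblast markers as a covariate the counts were 23 against 0 h and 7 against 3 h, and the share of all genes called lower was 16.3% and 5.51%. The fibroblast markers themselves had a median log2 fold change of -0.12 at 3 h against 0 h with 0 called, -0.01 at 6 h against 0 h with 2 called higher, and 0.13 at 6 h against 3 h with 9 called higher.

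**Figure D1:**
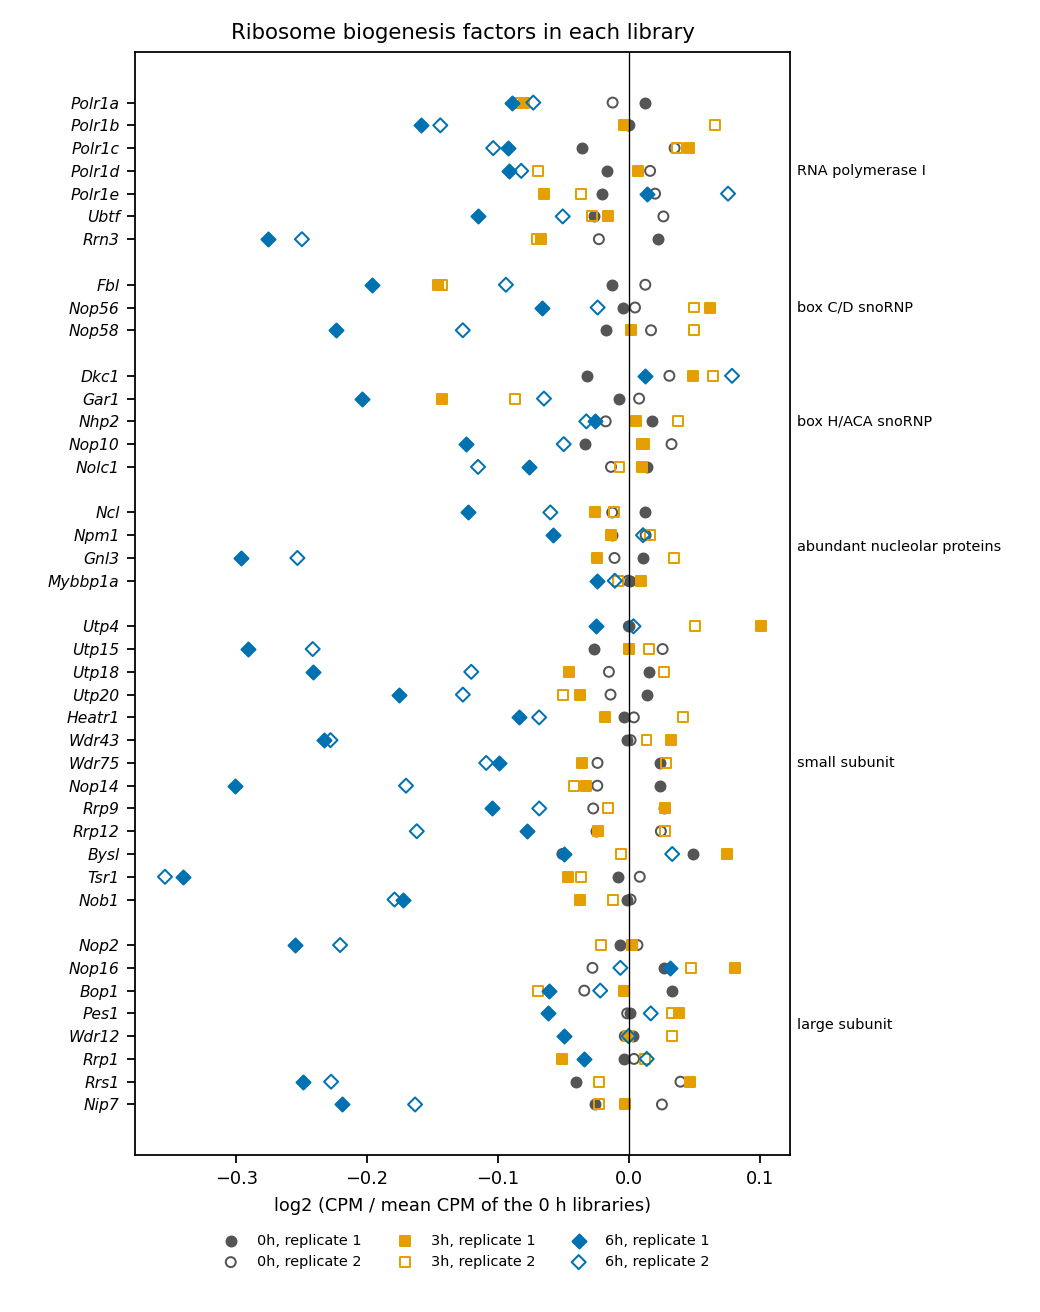
Level of each of the 40 factors in each of the 6 libraries, as the log2 ratio of its CPM to the mean CPM of the 0 h libraries, with genes grouped by role; circles are 0 h, squares 3 h and diamonds 6 h, filled for replicate 1 and open for replicate 2. Of the 40 factors 27 have both 6 h libraries to the left of all 4 earlier ones, and Tsr1 lies farthest to the left.

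Library by library, both 6 h values lay below all 4 earlier values for 27 of the 40 factors and above them for 0, where 22.5% of all genes were below and 21.3% above. Between 6 h and 0 h alone, 30 factors were lower without overlap, 0 were higher and 10 overlapped, against 29.9% lower and 29.6% higher among all genes. Between 6 h and 3 h, 30 were lower and 1 higher without overlap, against 30% and 30.8%. From 0 h to 3 h, 9 were lower and 7 higher without overlap, against 21.8% and 20.5% of all genes. The summed level of the 40 was 13070.4 and 13093 CPM at 0 h, 12972 and 13091 CPM at 3 h and 12108 and 12531 CPM at 6 h. Of the 6 h libraries, replicate 1 had the lower value for 32 of the 40 factors (80%), against 49.8% of all genes. Genes that collect rRNA reads held 1.5% of the counts in that library, 0.828% in replicate 2 and 0.392 to 1.16% in the libraries of the earlier times. With those genes left out 17 factors were again lower against 0 h, beside 12.2% of all genes. The median log2 level relative to 0 h was -0.10 in replicate 1 and -0.08 in replicate 2.

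Promoter sequence was read for the factors because 17 of them fell together and because many growth genes carry the E-box CACGTG, which Myc with Max, among other factors, is known to bind. RefSeq windows on GRCm38.p6, from 250 bases before to 50 after the start, were found for 35 of the 40. CACGTG, which reads alike on both strands, was in the windows of 9 of these 35 (25.7%), in 7.15% of all 32851 windows and in 11.6% of the 11153 tested genes with a window. Of the 15 factors with a window that fell at 6 h it was found in 6, and of the 20 that were not called in 3. The sites of all 9 genes follow, in lower case with the E-box in capitals, each read 5′ to 3′ on the gene's strand.
Rrn3, upstream copy, chr16:13780464-13780509, plus strand: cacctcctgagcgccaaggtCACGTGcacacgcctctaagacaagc
Rrn3, copy nearer the start, chr16:13780631-13780676, plus strand: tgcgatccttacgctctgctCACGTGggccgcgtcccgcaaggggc
Nop2, chr6:125131803-125131848, plus strand: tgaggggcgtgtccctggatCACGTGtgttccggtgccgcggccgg
Tsr1, chr11:74898094-74898119, plus strand: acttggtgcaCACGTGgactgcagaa
Utp18, chr11:93885771-93885796, minus strand: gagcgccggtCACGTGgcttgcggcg
Utp20, chr10:88826765-88826787, minus strand: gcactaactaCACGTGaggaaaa
Wdr43, chr17:71616222-71616247, plus strand: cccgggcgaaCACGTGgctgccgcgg
Mybbp1a, chr11:72441357-72441376, plus strand: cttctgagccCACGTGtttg
Pes1, chr11:3963967-3963992, plus strand: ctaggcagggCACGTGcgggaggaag
Utp4, chr8:106893645-106893670, plus strand: cgcaagcgcgCACGTGgggccggggc

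The first 7 lines belong to the 6 genes that fell and the last 3 to genes that were not called. Rrn3 held 2 copies, 215 and 48 bases before its start, so its 250 bases before the start are given whole, with both copies in capitals, on the plus strand of chr16:13780449-13780698.
Rrn3 promoter: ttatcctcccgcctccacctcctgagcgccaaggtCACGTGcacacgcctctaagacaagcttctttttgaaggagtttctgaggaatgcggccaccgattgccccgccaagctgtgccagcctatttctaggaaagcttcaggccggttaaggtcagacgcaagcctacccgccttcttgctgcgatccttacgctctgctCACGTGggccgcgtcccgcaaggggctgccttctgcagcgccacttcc
In Nop2 the copy lay 60 bases before the start, in Utp18 20 bases before it, and in Tsr1, Utp20 and Wdr43 just after it. These are RefSeq starts. The Wdr43 copy lies farther inside the gene as GENCODE annotates it, from chr17:71615895. The ETS-type motif CCGGAAG, searched on both strands, was in 12 of the 35 factors' windows, 19.1% of the tested genes and 8.86% of all windows. It was in 6 of the 15 windows of factors that fell and 6 of the 20 that were not called. The palindromic NRF1 motif was in 0 of the 35 and in 2.21% of the tested genes. A match is a run of letters and does not show that a factor bound there.

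RNA polymerase I makes the rRNA precursor, and 2 of its 7 genes fell at 6 h. That was 28.6%, beside 12.3% of all genes and 22.5% of genes of the same abundance. Rrn3 encodes the initiation factor that joins the polymerase to the rRNA gene promoter and was at 386 and 374 CPM at 0 h, 363 and 362 CPM at 3 h and 314 and 319.7 CPM at 6 h. Both 6 h libraries were below all others and the groups did not overlap, with a log2 fold change of -0.26 ± 0.03 (SE, edgeR adjusted p = 2.63e-05). The gene spans chr16:13780708-13814839 on the plus strand of GRCm38. Polr1b, a catalytic core subunit, was at 149 and 149 CPM at 0 h, 149 and 156 CPM at 3 h and 134 and 135 CPM at 6 h. Its 6 h values were the lowest without overlap, with a log2 fold change of -0.15 ± 0.04 (SE, edgeR adjusted p = 0.00988), or -0.14 and an adjusted p of 0.0553 in edgeR without replicate 1 of 6 h. DESeq2 did not call Polr1b either (adjusted p = 0.0548). Polr1c, a subunit shared with RNA polymerase III, was at 99.6 and 105 CPM at 0 h, 105 and 105 CPM at 3 h and 95.8 and 95.0 CPM at 6 h. Both 6 h libraries were below the rest, and it was called against 3 h (log2 fold change -0.14 ± 0.04 SE, edgeR adjusted p = 0.0251) but not against 0 h (-0.10 ± 0.04 SE, edgeR adjusted p = 0.106). The call against 3 h was lost without either 3 h library or either 6 h library, where the edgeR adjusted p was between 0.0853 and 0.150.

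The other polymerase genes were not called. The largest subunit gene Polr1a was at 231 and 227 CPM at 0 h, 217 and 216 CPM at 3 h and 215 and 218 CPM at 6 h. Its 3 h and 6 h values lay together below the 0 h values, with a log2 fold change of -0.08 ± 0.03 (SE) at 3 h and -0.08 ± 0.03 (SE) at 6 h. Ubtf, the factor that coats active rRNA genes, had -0.08 ± 0.04 (SE) at 6 h, and Polr1d, also shared with RNA polymerase III, had -0.09 ± 0.05 (SE). Polr1e, an accessory subunit, had the lowest CPM of the 40, with 0.05 ± 0.06 (SE).

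Of the 3 box C/D snoRNP proteins, which carry out guided methylation of rRNA, Fbl and Nop58 fell at 6 h. That was 66.7%, beside 12.3% of all genes and 22.5% of genes in the abundance range of the 40. Nop58, a scaffold protein of the particle, was at 399 and 408 CPM at 0 h, 404 and 418 CPM at 3 h and 346 and 369.7 CPM at 6 h. Its 6 h libraries were the lowest without overlap, with a log2 fold change of -0.17 ± 0.04 (SE, edgeR adjusted p = 0.00254). Fbl, fibrillarin, the methyltransferase itself, was at 169.5 and 173 CPM at 0 h, 155 and 155 CPM at 3 h and 149 and 160.2 CPM at 6 h. It was already lower in both 3 h libraries, and its 3 h and 6 h values overlapped. At 3 h Fbl had a log2 fold change of -0.14 ± 0.04 (SE), with the smallest edgeR adjusted p of the 40 there (0.189). At 6 h it had -0.14 ± 0.04 (SE), and edgeR's adjusted p was 0.0165. The Fbl call was lost without replicate 2 of 0 h, at an edgeR adjusted p of 0.0894, and without replicate 1 of 6 h, at 0.193 and a log2 fold change of -0.09. It was also lost in DESeq2 (adjusted p = 0.0735), and in edgeR with library sizes alone (adjusted p = 0.0653) and with no filter on low counts (adjusted p = 0.085). Nop56, the other scaffold protein, was at 331 and 333 CPM at 0 h, 347 and 344 CPM at 3 h and 317 and 327 CPM at 6 h. The 3 h values were the highest and the 6 h values the lowest, and it was called against 3 h alone (log2 fold change -0.10 ± 0.03 SE, edgeR adjusted p = 0.0374). That call held without replicate 1 of 0 h and without replicate 2 of 6 h, and with each of the other 4 libraries left out edgeR's adjusted p was 0.0575 to 0.234.

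Of the 5 box H/ACA genes, whose particles convert uridine to pseudouridine, 1 fell at 6 h. That was 20%, beside 12.3% of all genes and 22.5% of genes in the abundance range of the 40. Nolc1, a nucleolar chaperone that binds both kinds of snoRNP, was at 328 and 322 CPM at 0 h, 327 and 324 CPM at 3 h and 308 and 300.2 CPM at 6 h. Its 6 h libraries were below all others by a small margin, with a log2 fold change of -0.10 ± 0.03 (SE, edgeR adjusted p = 0.0487) against 0 h and -0.10 ± 0.03 (SE, edgeR adjusted p = 0.0469) against 3 h. Both calls were lost whichever of the 6 libraries was left out, with edgeR adjusted p of 0.0586 to 0.252 against 0 h and 0.0507 to 0.272 against 3 h. DESeq2's adjusted p was 0.163 against 0 h and 0.147 against 3 h. The core proteins were not called. Dkc1, dyskerin, the pseudouridine synthase, had a log2 fold change of 0.05 ± 0.04 (SE) at 6 h, the highest of the 40. Gar1 had -0.13 ± 0.05 (SE), Nop10 -0.09 ± 0.06 (SE) and Nhp2 -0.03 ± 0.04 (SE).

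Among the 4 abundant nucleolar proteins Gnl3 and Ncl fell at 6 h. That was 50%, beside 12.3% of all genes and 22.5% of genes in the abundance range of the 40. Gnl3, nucleostemin, a nucleolar GTP-binding protein known from stem cells, was at 286 and 282 CPM at 0 h, 279 and 291 CPM at 3 h and 231 and 238 CPM at 6 h. The 6 h values were clearly separate from the other 4, with a log2 fold change of -0.27 ± 0.04 (SE, edgeR adjusted p = 3.81e-05) and the same order of change against 3 h (-0.28 ± 0.04 SE, edgeR adjusted p = 4.09e-05). It lies on chr14:31012433-31019152, on the minus strand, and hosts 3 snoRNA genes. Ncl, nucleolin, an RNA-binding protein of the nucleolus, was at 2624 and 2578 CPM at 0 h, 2555 and 2581 CPM at 3 h and 2388 and 2495 CPM at 6 h. Both 6 h libraries were below the rest, yet the log2 fold change was only -0.09 ± 0.03 (SE, edgeR adjusted p = 0.0296), and the call held in 1 of the 6 fits that left out a library, that without replicate 2 of 6 h. In the other 5 the edgeR adjusted p was 0.0739 to 0.184, and without replicate 1 of 6 h the log2 fold change was -0.05. DESeq2 did not call Ncl (adjusted p = 0.105). Npm1, nucleophosmin, a histone and assembly chaperone, was at 3347 and 3408 CPM at 0 h, 3346 and 3415 CPM at 3 h and 3244 and 3403 CPM at 6 h. Its groups overlapped and it was not called (-0.02 ± 0.03 SE, edgeR adjusted p = 0.613). The genome holds processed copies of Npm1, so its counts are uncertain where reads match several places. Mybbp1a, a nucleolar protein that takes part in rRNA processing, was not called and had -0.02 ± 0.03 (SE). Npm1 and Ncl together held 45.7% of the factors' counts at 0 h, so these genes, with small changes, weigh heavily in the summed level of the 40.

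**Figure D2:**
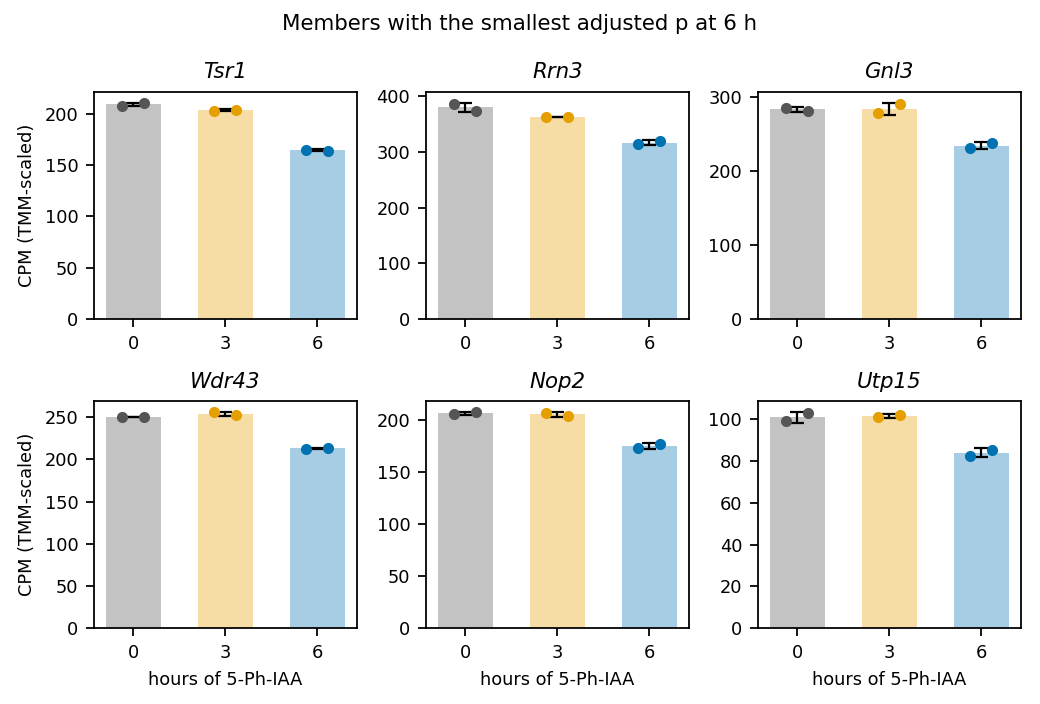
TMM-scaled CPM of the 6 factors with the smallest adjusted p at 6 h against 0 h, by hours of 5-Ph-IAA; points are libraries, bars the mean and error bars the SD of 2 libraries. In each panel both 6 h points lie below the 4 others, while the 3 h points lie near the 0 h points, slightly below them for Tsr1 and Rrn3.

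Of the small subunit factors, the longest of the role lists, 7 of 13 fell at 6 h against 0 h. That was 53.8%, beside 12.3% of all genes and 22.5% of genes in the abundance range of the 40. The median of the 13 was -0.15 on the log2 scale. Tsr1, a GTPase-like factor that stays on the small subunit precursor until late in its assembly, was at 208 and 210.2 CPM at 0 h, 202 and 204 CPM at 3 h and 165 and 163 CPM at 6 h. The 6 h values were far below the other 4 relative to the spread between replicates, with a log2 fold change of -0.35 ± 0.04 (SE, edgeR adjusted p = 2.95e-06), the smallest adjusted p of the 40. Tsr1 lies on chr11:74898071-74909342 on the plus strand, and 32.3% of its exon length overlaps exons of Srr on the other strand. The kit marks strand, but whether the counting used it is not given in the sources used here, so reads in the overlap are uncertain. Srr was at 6.69 to 8.97 CPM, with a log2 fold change of -0.29 (edgeR adjusted p = 0.108).

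Utp15 and Wdr43 belong to the group of proteins that binds the rRNA precursor first and couples its transcription to processing. Utp15, on chr13:98246845-98263041, was at 99.0 and 103 CPM at 0 h, 101 and 102 CPM at 3 h and 82.4 and 85.2 CPM at 6 h. Both 6 h libraries were lower than all others, with a log2 fold change of -0.27 ± 0.04 (SE, edgeR adjusted p = 0.000285). Wdr43, on chr17:71615895-71659031, was at 249.6 and 250.1 CPM at 0 h, 256 and 252 CPM at 3 h and 213 and 213 CPM at 6 h. Its replicates nearly coincided at 6 h, below the other 4, with a log2 fold change of -0.23 ± 0.03 (SE, edgeR adjusted p = 0.000125). From the same group, Heatr1 (-0.08 ± 0.03 SE), Wdr75 (-0.10 ± 0.04 SE) and Utp4 (-0.01 ± 0.04 SE) were not called at 6 h.

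Nop14, a factor of the early small subunit particle, was at 127 and 123 CPM at 0 h, 123 and 122 CPM at 3 h and 102 and 111 CPM at 6 h. Replicate 1 was lower than replicate 2 at 6 h, and both were below the other 4, with a log2 fold change of -0.23 ± 0.05 (SE, edgeR adjusted p = 0.00141). Utp18, from another early subcomplex, was at 106 and 104 CPM at 0 h, 102 and 107 CPM at 3 h and 88.7 and 96.5 CPM at 6 h. The groups did not overlap, with a log2 fold change of -0.18 ± 0.05 (SE, edgeR adjusted p = 0.0115), and the call was lost without replicate 1 of 0 h (edgeR adjusted p = 0.0606) and without replicate 1 of 6 h (log2 fold change -0.11, edgeR adjusted p = 0.157). Neither DESeq2 (adjusted p = 0.0571) nor edgeR with no filter on low counts (adjusted p = 0.0833) called it. Utp20, a very large scaffold-like protein, was at 352 and 346 CPM at 0 h, 340.2 and 337 CPM at 3 h and 309 and 319.7 CPM at 6 h. Its 6 h values were the lowest without overlap, with a log2 fold change of -0.15 ± 0.03 (SE, edgeR adjusted p = 0.00361). Nob1, the endonuclease that trims the small subunit rRNA to its mature end, was at 79.8 and 79.9 CPM at 0 h, 77.8 and 79.2 CPM at 3 h and 70.9 and 70.5 CPM at 6 h. Both 6 h libraries were below the rest, with a log2 fold change of -0.18 ± 0.04 (SE, edgeR adjusted p = 0.00748). DESeq2 did not call Nob1 (adjusted p = 0.0714). Rrp12, an export and assembly factor, came next at -0.12 ± 0.04 (SE, edgeR adjusted p = 0.0594) and was not called. Rrp9, a protein of the snoRNP that starts cleavage, had -0.09 ± 0.04 (SE), and Bysl, a factor of the late particle, had -0.01 ± 0.05 (SE).

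Of the 8 large subunit factors, 3 fell at 6 h (37.5%, beside 12.3% of all genes and 22.5% of genes of the same abundance). Nop2, an rRNA methyltransferase, on chr6:125131909-125144753, was at 206 and 208 CPM at 0 h, 207 and 204 CPM at 3 h and 173 and 178 CPM at 6 h. Both 6 h libraries were below the other 4, with a log2 fold change of -0.24 ± 0.04 (SE, edgeR adjusted p = 0.000154). Rrs1, which brings a small rRNA and its proteins into the large subunit, was at 87.5 and 92.5 CPM at 0 h, 92.9 and 88.6 CPM at 3 h and 75.7 and 76.9 CPM at 6 h. Its 6 h values were again the lowest without overlap, with a log2 fold change of -0.24 ± 0.05 (SE, edgeR adjusted p = 0.0013). Nip7, an RNA-binding assembly factor, was at 94.2 and 97.6 CPM at 0 h, 95.7 and 94.4 CPM at 3 h and 82.4 and 85.7 CPM at 6 h. It too was lowest in both 6 h libraries, with a log2 fold change of -0.19 ± 0.04 (SE, edgeR adjusted p = 0.00424). The 3 proteins of the PeBoW complex, which acts in processing of the large subunit rRNA, were not called. Their log2 fold changes at 6 h were -0.02 ± 0.04 (SE) for Pes1, -0.04 ± 0.04 (SE) for Bop1 and -0.02 ± 0.04 (SE) for Wdr12. Rrp1 had -0.01 ± 0.04 (SE) and Nop16 0.01 ± 0.05 (SE), and neither was called.

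**Figure D3:**
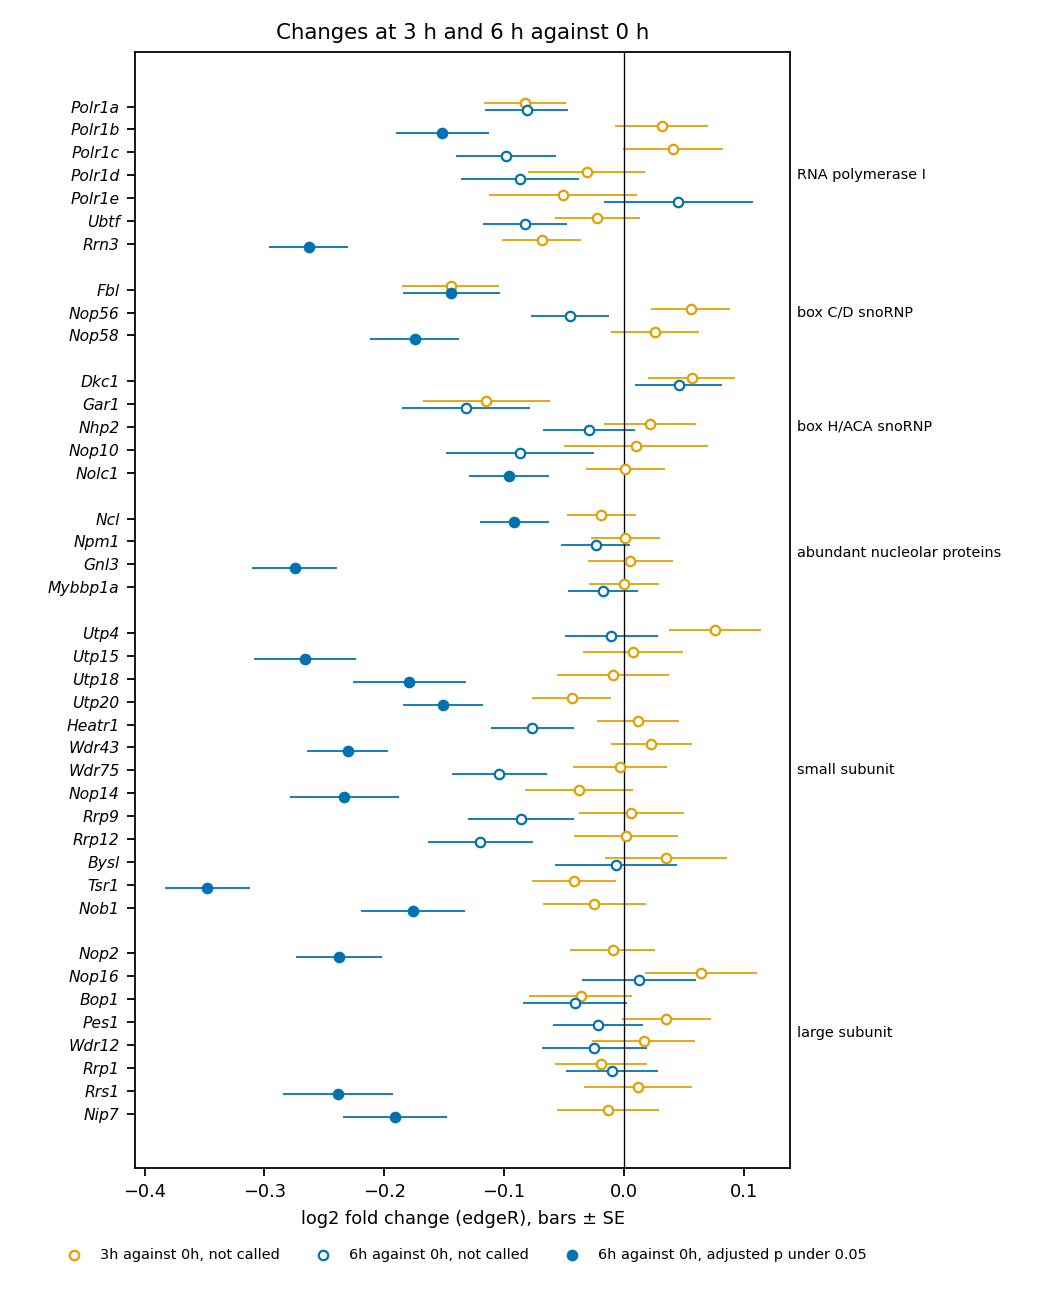
Log2 fold change (edgeR) of each of the 40 factors at 3 h and at 6 h against 0 h, by role, with bars of ± 1 SE; filled points have an adjusted p under 0.05 and open points do not. All 17 filled points are 6 h points to the left of 0, and no 3 h point is filled.

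Against 3 h, the same 7 small subunit factors and the same 3 large subunit factors were called lower. Those were 53.8% and 37.5% of their lists, beside 11.8% of all genes and 22.6% of genes of the same abundance. Their log2 fold changes ran from -0.31 ± 0.04 (SE) for Tsr1 to -0.11 ± 0.03 (SE) for Utp20. In that comparison the calls of Nip7, Nop14 and Utp20 were lost without either 3 h library and without replicate 1 of 6 h, that of Nob1 also without replicate 2 of 6 h, that of Utp18 without replicate 2 of 3 h or replicate 1 of 6 h, and that of Polr1b without replicate 2 of 3 h. The edgeR adjusted p in those fits was 0.0566 to 0.210, and without replicate 1 of 6 h the log2 fold change was -0.10 for Utp18 and -0.13 for Nop14. Nolc1, Nop56 and Polr1c also lost their calls against 3 h in such fits, as given above. Of the 17 called against 3 h, only Tsr1, Gnl3, Wdr43, Utp15, Nop2, Rrn3, Rrs1 and Nop58 were called whichever library was left out. Against 0 h 12 of the 17 were.

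Levels between genes were compared as CPM per kilobase of the principal transcript at 0 h. Npm1 was highest at 2068 CPM per kilobase, followed by Ncl at 317 and Nop58 at 236, and Polr1e was lowest at 9.28, with a median of 50.9. The annotated transcript taken for Ncl has 8202 nucleotides, that for Npm1 1633 and that for Nop58 1713. These values therefore depend on the isoform taken, and a shorter Ncl isoform would give a higher value. Across the 40 genes Spearman's rho between mean CPM at 0 h and log2 fold change at 6 h was -0.07, given as a description because genes share libraries. The transcripts of the 17 that fell had a median GC content of 46.8% and those of the 23 not called 51.1%. The 13706 tested genes with a principal coding transcript had 50.8%. Spearman's rho between GC content and log2 fold change at 6 h was 0.15 across the 40 and 0.08 across the 13706. The median 3′ UTR of the 40 was 417 nucleotides, beside 859 for these 13706 genes. The 40 genes lie on 18 chromosomes, and 7 of them, Dkc1, Gnl3, Ncl, Nop56, Nop58, Tsr1 and Wdr43, host 21 annotated snoRNA genes. PolyA libraries do not measure snoRNAs well, and these had 0 to 37 counts. The 10 that overlap annotated exons of their host genes had 0 counts in all 6 libraries.

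**Figure D4:**
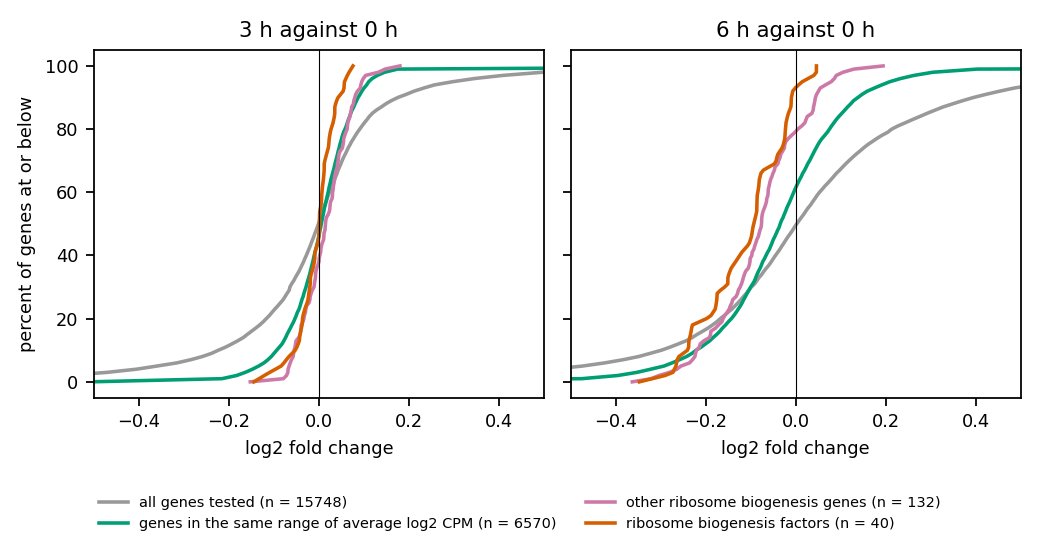
Cumulative share of genes (percent, vertical axis) by log2 fold change at 3 h (left) and 6 h (right) against 0 h, for all genes tested, genes in the same range of average log2 CPM, 132 other ribosome biogenesis genes and the 40 factors. At 3 h the curves cross near 0. At 6 h the 2 ribosome biogenesis curves lie to the left at the median and above it. Their medians are -0.08 and -0.09, against 0.00 for all genes and -0.03 for genes in that abundance range. In the lower tail the curve of all genes lies farther left (-0.30 at percentile 10, against -0.22 and -0.24).

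The wider pathway was described with 4 lists of genes that are not among the 40, of which 132 were matched and tested and Nopchap1 was not matched. At 3 h 0 of the 132 were called. At 6 h against 0 h 37 fell (28%) and 1 rose (0.758%), and the median of the 132 was -0.08 on the log2 scale. Of all genes 12.3% fell and 10% rose. Of genes in the abundance range of the 40 factors 22.5% fell and 9.03% rose. Of 15 other RNA polymerase I genes 2 fell (13.3%), both of them subunits of the factor that recruits the polymerase, Taf1d at -0.36 (edgeR adjusted p = 4.92e-06) and Taf1c at -0.30 (edgeR adjusted p = 0.0144). Top1, the DNA topoisomerase, rose by 0.19 (edgeR adjusted p = 0.000637) and was the only one of the 132 called higher at 6 h. Of 19 snoRNP assembly and rRNA modification genes 4 fell (21.1%), among them Nat10, an rRNA acetyltransferase, at -0.27 (edgeR adjusted p = 0.000108), Nufip1, a snoRNP assembly factor, at -0.32 (edgeR adjusted p = 0.000306), and Wdr4, known as a partner of a tRNA methyltransferase, at -0.32 (edgeR adjusted p = 0.000379). Of 45 other small subunit genes 12 fell (26.7%), led by the helicase Ddx21 at -0.19 (edgeR adjusted p = 0.00029), Pwp2 at -0.23 (edgeR adjusted p = 0.000979) and Krr1 at -0.22 (edgeR adjusted p = 0.00126). Of 53 other large subunit genes 19 fell (35.8%), led by Urb2 at -0.26 (edgeR adjusted p = 0.000258), Ppan at -0.22 (edgeR adjusted p = 0.000634) and the export adaptor Nmd3 at -0.22 (edgeR adjusted p = 0.00167). At 6 h against 3 h 46 of the 132 were lower (34.8%) and 1 was higher (0.758%). Of all genes 11.8% were lower and 9.89% higher. Of genes in that abundance range 22.6% were lower and 8.58% higher.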

How the data were processed

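The deposited table holds unnormalised read counts by Ensembl gene, which the authors made with fastp 0.22.0, HISAT2 2.2.1 and featureCounts 2.0.3 on GRCm38 (mm10), per the submitters' processing notes. The sources used here do not give the annotation release, the strand setting or how reads matching several places were treated, so counts of genes with near-identical copies or overlapping genes are uncertain. Everything else was computed here in R 4.3.3 with DESeq2 1.42.0, edgeR 4.0.16 and limma 3.58.1. Names and positions came from GENCODE M21 and promoter windows from RefSeq, both on GRCm38.

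Genes were kept by filterByExpr with its minimum of 10 counts (15748 genes) and libraries scaled by TMM. All 6 libraries entered a single edgeR quasi-likelihood model of the 3 times, with a common dispersion and without covariates (residual df 3, prior df 13.7), and p-values were adjusted (Benjamini-Hochberg, two-sided) over all genes tested. CPM values are TMM-scaled. The limit for a count of 0 is 3 counts, 0.139 to 0.181 CPM, and covers counting error only. Replicates differed by more than counting noise, with a chi-square of 2.07 to 7.08 per degree of freedom. The fit was tested on simulated data.

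The members and lists were chosen with earlier results of these data known. All members are accounted for: those called in any comparison are given with the value in every library, and up to 3 called genes with the smallest adjusted p are named per pathway list. Alternatives were other size factors, other filters, DESeq2, limma voom, a replicate block, 4-library fits, a fibroblast-marker covariate, leaving out genes that collect rRNA reads, and leaving out each library. A legacy edgeR fit was added after seeing the data.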

Additional observations from a re-analysis of the deposited data

How the results depend on the processing

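The median log2 fold change of the 40 factors kept its direction under all alternatives at 6 h. It ran from -0.10 to -0.06 against 0 h and against 3 h. At 3 h against 0 h its sign changed between alternatives, from -0.033 to 0.005. The lowest value came with the fibroblast-marker covariate, where 28 factors lay below 0, beside 18 in the main fit. The median of all genes was -0.005 in that covariate fit. The named calls kept their direction in every alternative. Against 0 h, 11 of 17 calls held in all 17 alternatives, and 6 of 17 held against 3 h. DESeq2 called 11 lower against 0 h and 10 against 3 h, beside 6.91% and 6.02% of all genes. Against 3 h, 11 were lower with library sizes alone, 11 with no filter and 7 with the fibroblast-marker covariate. In those fits 8.23%, 3.68% and 5.51% of all genes were lower. Library sizes alone moved the share of all calls that were higher at 6 h against 0 h from 44.8% to 59.4%. That fit left 29 instead of 37 factors below 0 and 14 called lower, beside 9.25% of all genes. Leaving out 1 library at a time gave 13 to 17 lower against 0 h and 8 to 16 against 3 h; the lone library is then assumed to vary like the others. In each of those fits a smaller share of all genes was called lower against 0 h than the 12.3% of the main fit. The factors' median log2 fold change against 0 h ran from -0.10 to -0.07 in them, beside -0.09 in the main fit. At 3 h, with 0 factors called, 3 of the 40 had an unadjusted p under 0.05 in edgeR, 1 in DESeq2 and 4 in limma voom. Of all 15748 genes 1679, 446 and 1695 had one in the same fits.

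Deviations of same-numbered libraries correlated at 0.04 between 0 h and each later time and at -0.02 between 3 h and 6 h. The summed fibroblast markers were higher in replicate 1 at all 3 times. The labels do not say whether the numbers mark pairs, and the main model left them out. With the replicate number as a block, 1 factor was lower at 3 h, 20 at 6 h against 0 h and 21 against 3 h, where 1.19%, 14.7% and 14.2% of all genes were lower. The share of all genes called in either direction rose with the block from 0.14% to 1.54% at 3 h. At 6 h against 0 h it rose from 22.3% to 26.8%. A factor that was not called is not shown to be unchanged.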
